A study of Saccharomyces cerevisiae with 8 samples.

Results

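The subtelomeric regions of budding yeast were described here as the windows within 30 kb of the ends of 13 of the 16 chromosomes. Chromosomes I, III and VI were left out. A window is 1000 bp long and a new one starts every 500 bp, so that each of the 26 ends holds 61 windows and all ends together hold 1586 of the 24133 windows of the genome. Membership was decided by position alone. The windows belong to genome build sacCer2, and an end is called by its chromosome and arm.

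The DNA came from diploid W303 cells that were homozygous for cdc7-4, a temperature-sensitive allele of the kinase Cdc7. All cells also carried 1 copy each of Mcm6-aid::HIS3, a form of the helicase subunit Mcm6 that auxin removes, and of ADH1-TIR::URA, which by its name puts the auxin receptor TIR under the ADH1 promoter. Mcm6-SuOn cells were Mcm6-SuOn::KAN/+ and control cells Mcm6-ctrl::KAN/+, and these are the forms of Mcm6 that were compared. Each genotype is represented by a single strain ID. Cultures were held before mitosis with nocodazole, treated with auxin (IAA), warmed to inactivate cdc7-4, and cooled to let S phase begin. Samples were taken 0, 15, 30 and 40 min after cooling, with 1 library for each genotype and time, 8 in all. No difference between groups therefore has a replicate check, and no test across windows was made.

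Cdc7 phosphorylates the MCM helicase, of which Mcm6 is a subunit, so that licensed origins of replication can fire. In budding yeast the origins near chromosome ends typically fire late or are passively replicated, in part because the telomere-binding protein Rif1 recruits a phosphatase that counteracts Cdc7. Subtelomeres also hold repeated X and Y′ elements and gene families copied between chromosome ends, to which short reads are hard to assign. Copy number in a bulk culture is an average over cells. Fewer cells that have replicated an end and less complete replication of that end in every cell cannot be told apart.

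Library depth was 13791475 to 23440860 reads, of which 667848 to 1111444 lay in the subtelomeric windows. The later libraries were recovered from deposited ratios, which list a window at 0 where the count in the later or in the 0 min library was about 600 or lower, so their totals leave out such windows. Windows above 0 in all 6 later tables are called used windows. The level of an end is the mean count over its used windows divided by the median count of the inner windows of the same library, which lie more than 30 kb from the ends of the same 13 chromosomes. A level of 1 thus equals the typical inner window. A level is relative: it also changes when the inner windows change, so it does not give the copy number of the end itself. The read number behind a level was 4147 (IX left in the control at 0 min) to 84869 (XI left in Mcm6-SuOn at 40 min). The 95% intervals below are exact binomial intervals for ratios of read counts and cover counting error only.

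Many subtelomeric windows gave no usable ratio. Of the 1586 windows, 1053 (66.4%) were used and 533 (33.6%) were listed at 0 in at least 1 later table. Listing at 0 affected 5.35% of all windows of the genome and 2.99% of the inner windows of the same chromosomes. The share not used was 77.6% at 0 to 5 kb from the end, 48.8% at 5 to 10 kb, 39.2% at 10 to 15 kb and 18.5% at 15 to 20 kb. It was 6.92% at 20 to 25 kb and 6.15% at 25 to 30 kb, against 4.62% just outside the limit at 30 to 35 kb. The missing windows were thus concentrated in the outermost kilobases, and levels there rest on few ends: 11 of 26 ends had any used window in the outermost 5 kb.

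The ends differed widely in how much of them could be measured. IX right, XI left and XI right kept all 61 windows, and XV left kept 58. VIII right kept 8, IX left kept 12 and X left kept 22. The other ends lost 8 to 33 windows each.

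**Figure D1:**
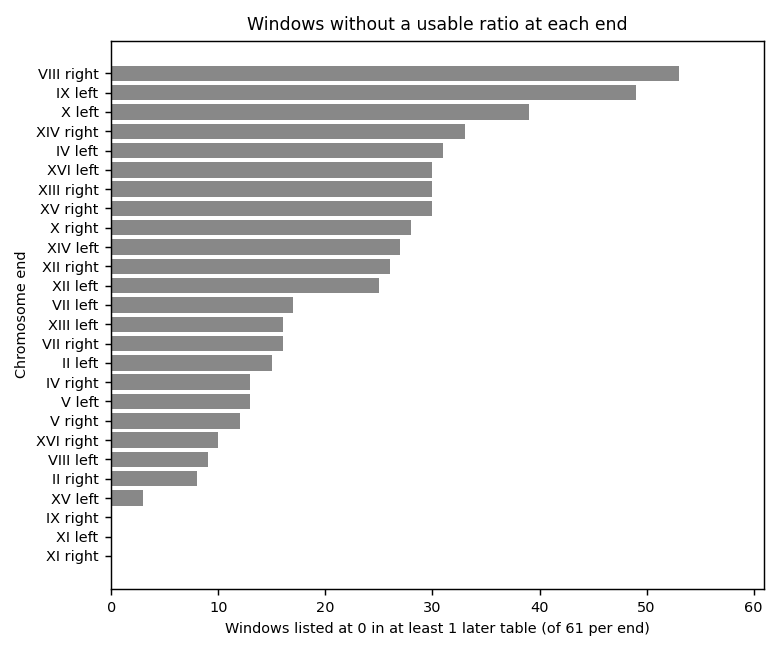
Number of the 61 windows at each chromosome end that were listed at 0 in at least 1 later table (horizontal axis, windows), with the 26 ends down the page from most to fewest. VIII right lost 53 windows and IX left 49, while IX right, XI left and XI right lost none.

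The genes at the ends were taken from the order of protein-coding genes in the RefSeq table of a newer yeast assembly (R64). It gives names and order but no positions in the build of the files. A gene counted at an end may therefore lie outside its 30 kb. Whether these W303 cells carry the same genes at these ends was not examined. Among the outermost 10 genes, 25 of 26 ends held at least 1 gene of the subtelomeric families listed for this work, 62 genes in all. XVI right held none. Families were counted by gene name, so genes with a systematic name only, such as YBL113C at II left and YPR204W at XVI right, were counted in none. PAU genes, which encode seripauperins, stood at 17 ends, COS genes, a family of membrane proteins, at 10, and YRF1 genes, which encode the helicase of the Y′ element, at 7. Hexose transporter (HXT) genes stood at 5 ends, and genes for growth on maltose and isomaltose (MAL and IMA) and for putative aryl-alcohol dehydrogenases (AAD) at 4 ends each. Thiamine synthesis genes of the THI5 family stood at 3 ends. A flocculin gene (FLO), the invertase gene SUC2, the guanine nucleotide synthesis gene IMD2 and a formate dehydrogenase gene (FDH) stood at 1 end each, and no DAN or TIR cell wall mannoprotein gene did.

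Ends with some of these families had lost more windows. The median number of windows not used was 31 at the 5 ends with HXT genes and 16 at the others, and 26 at the 7 ends with genes named YRF1 against 16. For PAU genes the medians were 17 and 16. For COS genes they ran the other way, at 16.5 with and 20 without. Across the 26 ends, the number of family genes and of windows not used had a Spearman rho of 0.351, a description over ends that share these families.

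Of the 8 pairs of ends that shared at least 3 gene name stems, some had like losses and some did not, a comparison made after the values were seen. IV left and X right shared 6 gene name stems (AAD, COS, HXT, MPH, SOR and THI) and had 31 and 28 windows not used. XV right and XVI left shared 5 (ERR, FEX, HSP, PAU and YRF1), with 30 windows not used at each. IX left and X left shared IMA, PAU and VTH, with 49 and 39. XIV left shared AAD, COS and THI with IV left and with X right, and had 27 windows not used. II right and VII right shared COS, MAL and PAU, with 8 and 16. IV right shared HSP, PAU and YRF1 with XV right and with XVI left, but had 13 windows not used against 30 at each of them. The files do not say how reads that map to several places were treated, and the part of sequence likeness in the losses was not tested.

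Over the 26 ends, the subtelomeres were lowest in the control library at 0 min. The median level in Mcm6-SuOn was 0.984, 1.08, 1.10 and 0.973 at the 4 times in order, against 0.777, 1.04, 1.09 and 1.02 in the control. The number of ends below 1 was 14, 5, 0 and 16 in Mcm6-SuOn and 19, 9, 4 and 12 in the control. The control library at 0 min was the lowest of the 8 libraries at 22 ends, and the control library at 30 min was the lowest at the other 4. The highest library was Mcm6-SuOn at 30 min at 14 ends.

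The ends were not alike. The SD of the level over the 26 ends was 0.150, 0.141, 0.133 and 0.199 in Mcm6-SuOn at 0, 15, 30 and 40 min, and 0.236, 0.145, 0.112 and 0.150 in the control. Over 347 inner stretches of 30 kb it was 0.0620, 0.0559, 0.0565 and 0.0966 in Mcm6-SuOn and 0.113, 0.0661, 0.0679 and 0.0959 in the control. Part of the spread came with the 4 ends that kept fewer than 30 windows. Over the 22 other ends the SD was 0.116, 0.0971, 0.0779 and 0.185 in Mcm6-SuOn and 0.230, 0.100, 0.0686 and 0.119 in the control, so that at 30 min the control ends varied about as much as its inner stretches. The median level of left arms was 0.989 in Mcm6-SuOn and 0.749 in the control at 0 min, and that of right arms was 0.962 in Mcm6-SuOn and 0.828 in the control. The level had no clear relation to chromosome length, with Spearman rho between -0.204 and 0.0329 over the 26 ends in the 8 libraries.

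**Figure D2:**
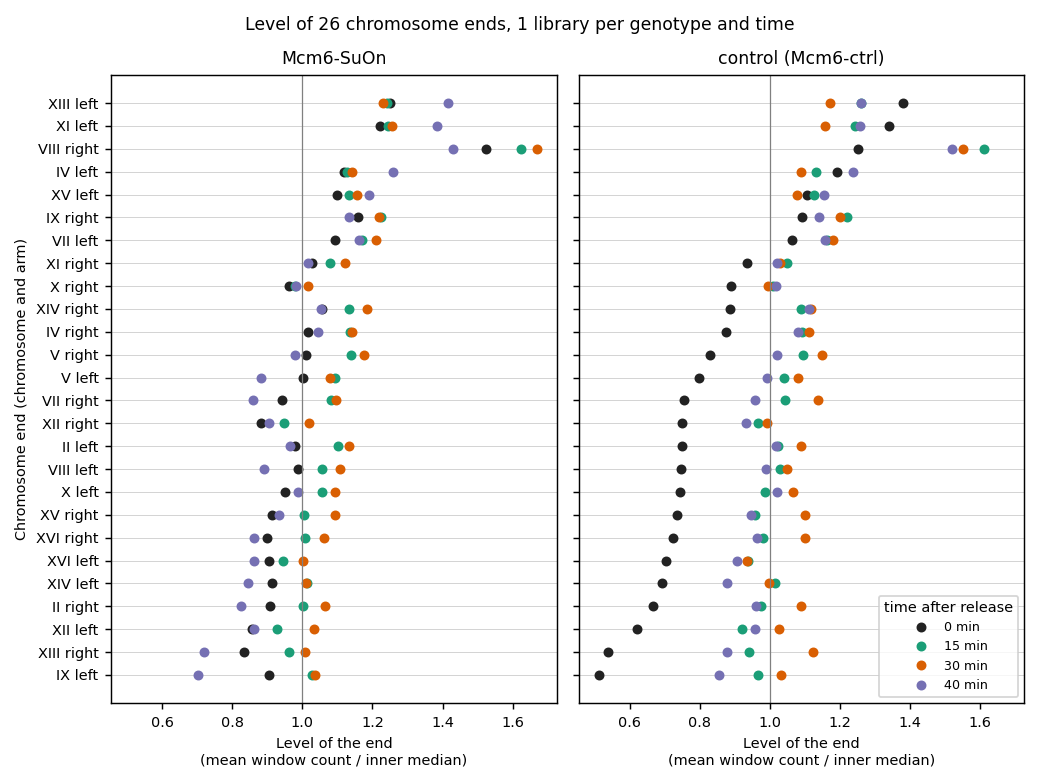
Level of each of the 26 ends (horizontal axis, mean window count over the inner median, no unit) in Mcm6-SuOn at left and the control at right, with 1 point for each library. Ends run from the highest to the lowest control level at 0 min; the black 0 min points reach down to 0.512 in the control, while the lowest 0 min level in Mcm6-SuOn is 0.834.

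Ends at the bottom of this order were IX left and XIII right. IX left had levels of 0.904, 1.03, 1.03 and 0.703 in Mcm6-SuOn at 0, 15, 30 and 40 min, against 0.512, 0.966, 1.03 and 0.856 in the control. XIII right had 0.834, 0.963, 1.01 and 0.719 in Mcm6-SuOn, against 0.537, 0.941, 1.12 and 0.876 in the control. Both ends were low in Mcm6-SuOn at 40 min and in the 0 min control library and stood near or above 1 in both genotypes at 30 min. Their mean levels over the 8 libraries, 0.875 for XIII right and 0.879 for IX left, were the lowest of the 26. The outermost gene at XIII right is PAU19, and the outermost 10 genes at IX left include SUC2 and IMA3.

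XIII left and XI left stood at the other extreme. XIII left had levels of 1.2497, 1.24, 1.23 and 1.42 in Mcm6-SuOn, against 1.38, 1.26, 1.17 and 1.26 in the control. XI left had 1.22, 1.24, 1.26 and 1.38 in Mcm6-SuOn, against 1.34, 1.24, 1.16 and 1.26 in the control. These ends lay above the inner median in all 8 libraries, and their highest levels were in the same libraries in which IX left and XIII right were lowest: Mcm6-SuOn at 40 min and the control at 0 min. The outermost gene at XI left is PAU16, and COS3 is among the outermost genes at XIII left.

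The highest mean level of all, 1.52, was at VIII right, where the 8 used windows had 1.52, 1.62, 1.67 and 1.43 in Mcm6-SuOn and 1.2508, 1.61, 1.55 and 1.52 in the control. A single window at chromosome VIII 553501 to 554500 had a level between 1.58 and 2.23 in the 8 libraries, and no other subtelomeric window was above 1.5 in all of them. The outermost 10 genes of this end include IMD2. The level of VIII right thus describes a small remainder of the end.

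**Figure D3:**
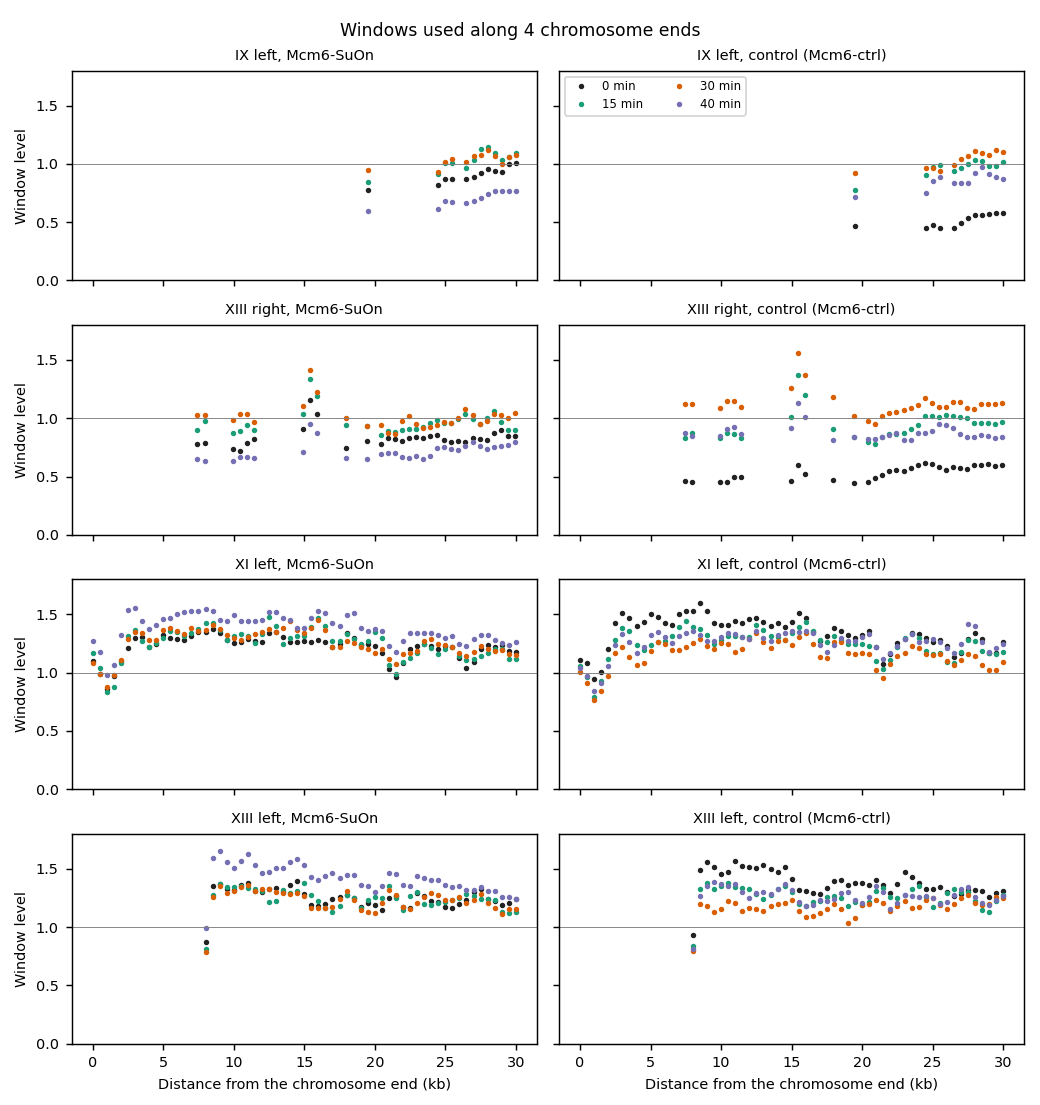
Level of each used window (vertical axis, window count over the inner median) against the distance from the chromosome end (horizontal axis, kb) at IX left, XIII right, XI left and XIII left, with Mcm6-SuOn at left and the control at right and 1 colour for each time. At XIII right the control 0 min points lie below the other control times, and at XIII left the same library lies highest at most positions.

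Before release, subtelomeric levels were higher in the Mcm6-SuOn library than in the control library at most ends, and the genotypes lay closer together at 15 and 30 min. The ratio of Mcm6-SuOn over control, as a median over the 26 ends, was 1.23, 1.02, 1.03 and 0.962 at 0, 15, 30 and 40 min. On the log2 scale these are 0.30, 0.04, 0.04 and -0.06. The number of ends higher in Mcm6-SuOn was 22, 21, 20 and 5, and the 95% counting interval lay above 1 at 22, 14, 17 and 4 ends and below 1 at 3, 1, 4 and 18. The difference thus changed side at 40 min at most ends. With the times taken as pairs, the mean of the 4 medians was 0.08 on the log2 scale, higher in Mcm6-SuOn in 3 of 4 pairs, with p = 0.5 in an exact 2-sided sign-flip permutation test. The smallest p that 4 pairs allow is 0.125. The times are not replicates, since each genotype has a single strain ID and 1 library at each time. Without the 0 min pair, the mean was 0.00527 (exact permutation p = 1, smallest possible 0.25), so the mean over times rested on the 0 min libraries.

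The spread between ends was widest at 0 min. At 0 min the ratio ran between 0.905 at XIII left and 1.76 at IX left. The range was 0.971 at X right to 1.08 at II left at 15 min, 0.897 at XIII right to 1.09 at XI right at 30 min, and 0.820 at XIII right to 1.12 at XIII left at 40 min. VII left was higher in Mcm6-SuOn at all 4 times, 14 ends were higher at 3 times and 11 at 2. No end was lower at more than 2 times. These counts take the side of the ratio alone. At VII left the counting interval held 1 at 15 min (ratio 1.006, 0.991 to 1.022) and at 40 min (1.003, 0.990 to 1.0165).

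The 5 ends with the highest mean log2 ratio over the 4 times were IX left (0.16), II left (0.12), X left (0.11), XVI left (0.10) and VIII left (0.09). All of them are left arms, but so are IV left, XIII left and VII left, which were among the 5 with the lowest mean. At IX left, 8572 reads in Mcm6-SuOn and 4147 in the control at 0 min gave a ratio of 1.76 with an interval of 1.70 to 1.83, and at 40 min the ratio was 0.821 (0.796 to 0.847). At II left, levels were 0.979, 1.10, 1.13 and 0.966 in Mcm6-SuOn, against 0.749, 1.02, 1.09 and 1.02 in the control. Its ratio was 1.31 (1.29 to 1.33) at 0 min and still 1.08 (1.06 to 1.09) at 15 min.

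X left and XVI left followed the same course. X left had 0.951, 1.06, 1.09 and 0.989 in Mcm6-SuOn, against 0.744, 0.985, 1.07 and 1.02 in the control. XVI left had 0.905, 0.946, 1.00 and 0.861 in Mcm6-SuOn, against 0.704, 0.938, 0.935 and 0.906 in the control, and VIII left had 0.989, 1.06, 1.11 and 0.890 against 0.747, 1.03, 1.05 and 0.988. At these 3 ends Mcm6-SuOn was higher at 0, 15 and 30 min and lower at 40 min. For XVI left at 15 min the counting interval, 0.988 to 1.03, held 1. The outermost gene of XVI left is YRF1-7, and IMA4, IMA5 and the hexose transporter genes HXT8 and HXT9 are among those of X left.

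The 5 ends with the lowest mean were IV left (0.00), X right (0.01), XIII left (0.02), VII left (0.02) and IX right (0.03). IV left had levels of 1.12, 1.13, 1.14 and 1.26 in Mcm6-SuOn, against 1.19, 1.13, 1.09 and 1.24 in the control, and its ratio at 0 min was 0.940 (0.924 to 0.956). VII left had 1.09, 1.17, 1.21 and 1.16 in Mcm6-SuOn, against 1.06, 1.16, 1.18 and 1.16 in the control. IX right had 1.16, 1.22, 1.22 and 1.13 in Mcm6-SuOn, against 1.09, 1.22, 1.199 and 1.14 in the control. Of these 5, only X right had a level below 1 in any library, with 0.962, 0.979, 1.02 and 0.982 in Mcm6-SuOn and 0.888, 1.01, 0.996 and 1.02 in the control. A mean near 0 does not mean that the genotypes were close at each time: at XIII left the ratio was 0.905 at 0 min and 1.12 at 40 min.

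**Figure D4:**
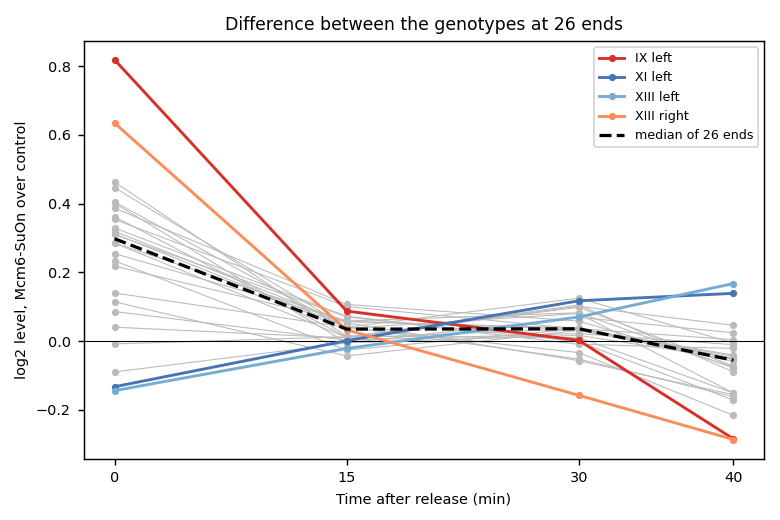
Difference between the genotypes (vertical axis, log2 of the Mcm6-SuOn level over the control level) against time after release (horizontal axis, min), with 1 line for each of the 26 ends and the median as a dashed line. The median is 0.30 at 0 min and -0.06 at 40 min; IX left and XIII right start highest and end lowest, and XI left and XIII left cross the other way.

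The differences at 0 and at 40 min mirrored each other across ends. The log2 ratios of Mcm6-SuOn over control at 0 min and at 40 min, which come from separate libraries, had a Pearson r of -0.903 over the 26 ends (Spearman rho -0.848). Levels in Mcm6-SuOn at 40 min and in the 0 min control library had r = 0.977 over the 26 ends, against 0.839 over the 347 inner stretches. Such values were not limited to this pair of libraries: Mcm6-SuOn at 0 min and the control at 15 min had r = 0.982 over the ends, and the 15 min libraries of both genotypes had 0.981. All libraries share the same windows, base composition and repeats, so these values are descriptions.

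XIII left, XI left and IV left were the ends whose counting interval lay below 1 at 0 min, and all 3 lay above 1 at 40 min. At XI left the ratio was 0.912 (0.902 to 0.923) at 0 min and 1.10 (1.09 to 1.11) at 40 min. At XIII right the order was opposite, with 1.55 (1.52 to 1.59) at 0 min and 0.820 (0.805 to 0.836) at 40 min.

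Single windows were counted as higher where the ratio of Mcm6-SuOn over control was more than 25% above 1, and as lower where it was more than 20% below 1, which is the same fold turned round. At 0 min, 388 of 1053 used subtelomeric windows (36.8%) were higher in Mcm6-SuOn, at 21 of 26 ends. The share over all used windows of the genome, which include chromosomes I, III and VI, was 5.26%, and over the inner windows of the same chromosomes it was 2.29%. At 15 min 1 subtelomeric window was higher, at 30 min 4 were, and at 40 min 2 were. The 1, 4 and 2 windows are 0.095%, 0.38% and 0.19% of the used subtelomeric windows. Of all used windows of the genome, 0.827%, 0.814% and 0.959% were higher at these times. Of the inner windows of the same chromosomes, 0.00986%, 0.0148% and 0.315% were. At 15 and 30 min the subtelomeric share was thus below that of all windows and above that of the inner windows, with very few windows in each. No subtelomeric window was lower at 0, 15 or 30 min, where 0.0525%, 0.0263% and 0.0438% of all windows were. At 40 min 29 windows (2.75%), at 4 ends, were lower, against 0.477% of all windows and 0.123% of the inner windows.

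Past a 1.5-fold ratio, 45 subtelomeric windows (4.27%), at 5 ends, were higher in Mcm6-SuOn at 0 min, against 1.19% of all windows. Of the inner windows of the same chromosomes, 0.113% were. None was at the later times, and no inner window of the same chromosomes was either. The shares of all windows at those times, 0.114%, 0.228% and 0.035%, thus came from chromosomes I, III and VI. The difference at most windows was thus under 1.5-fold at every time.

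No run of at least 4 adjacent used windows was higher, and none lower, at all 4 times or at all 3 later times. At 0 min alone there were 30 runs of higher windows at 15 ends. The longest held 40 windows at chromosome II 784001 to 804500, where the genotype ratio at 0, 15, 30 and 40 min was 1.38, 1.04, 0.961 and 0.848. Next came 27 windows at chromosome II 8501 to 22500, with 1.32, 1.07, 1.09 and 0.947. At 40 min 2 runs of 4 windows were lower, at chromosome XIII 912001 to 914500 with a ratio of 0.737 and at chromosome XVI 939001 to 941500 with 0.764. These single-time runs were picked once their values were known.

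The 0 min counts can be read without the later tables, over all 1586 windows. Of these, 199 had a count of 0 in Mcm6-SuOn and 217 in the control, 195 of them in both. Counts of at most 600 were found in 458 windows in Mcm6-SuOn and 528 in the control. The 70 windows by which the control exceeds Mcm6-SuOn were at most 600 in the control alone, and no window was so in Mcm6-SuOn alone. The mean count over the inner median was 0.722 in Mcm6-SuOn and 0.624 in the control over all windows, a ratio of 1.16. The inner median count was 1581 in Mcm6-SuOn and 1349 in the control, so a fixed limit of 600 stands at a higher level in the control. In the 70 windows, the median level at 0 min was 0.517 in Mcm6-SuOn and 0.383 in the control. The part of depth in these counts was not tested.

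Of the 70 windows, 16 lay at XIII right between 903501 and 917500, where the median level at 0 min was 0.772 in Mcm6-SuOn and 0.417 in the control. Another 7 lay at IX left between 19001 and 27000, with 0.711 in Mcm6-SuOn and 0.415 in the control. In Mcm6-SuOn, the 16 windows at XIII right had median levels of 0.880, 0.956 and 0.618 at 15, 30 and 40 min. No later level is given for the control in these windows, because its later tables list them at 0. These windows, which were low in the control at 0 min, are therefore left out of the levels of these ends above.

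In time, most ends had a higher level, relative to the inner windows, at 15 and 30 min than at 0 min. At 40 min most had a lower one than at 30 min. The median log2 change over 0 min in Mcm6-SuOn was 0.11, 0.16 and -0.02 at 15, 30 and 40 min, against 0.38, 0.42 and 0.32 in the control. The number of ends above their own 0 min level was 25, 25 and 11 in Mcm6-SuOn and 23, 22 and 24 in the control. Each change has the 0 min library of its own genotype below the line. Taken over 0 min counts pooled from both genotypes, the medians were 0.26, 0.31 and 0.08 in Mcm6-SuOn and 0.20, 0.25 and 0.16 in the control, so the control changes at 15 and 30 min were no longer the larger ones and the Mcm6-SuOn change at 40 min turned positive.

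The later libraries can be compared without 0 min, a comparison added after the data were seen. Between 30 and 15 min the median log2 change was 0.05 in Mcm6-SuOn and 0.03 in the control. At 40 over 30 min it was -0.22 in Mcm6-SuOn, with 22 of 26 ends lower, and -0.08 in the control, with 21 lower. The counting interval lay below 1 at 22 ends in Mcm6-SuOn and 18 in the control. The 4 ends that were higher at 40 than at 30 min in Mcm6-SuOn were XIII left, IV left, XI left and XV left, and these 4 and X right were the 5 ends that were higher in the control.

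The change at 40 over 30 min was uneven between ends. In Mcm6-SuOn it ran between 0.679 at IX left (interval 0.659 to 0.6996) and 1.15 at XIII left (1.14 to 1.17). In the control it ran between 0.779 at XIII right (0.765 to 0.794) and 1.14 at IV left (1.12 to 1.16). XIII right in Mcm6-SuOn stood at 0.713 (0.6998 to 0.726).

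With the same limits for single windows, the control had 560 subtelomeric windows (53.2%) higher at 15 than at 0 min, against 7.63% of all windows. The numbers were 615 (58.4%, against 10.4%) at 30 min and 475 (45.1%, against 6.51%) at 40 min. In Mcm6-SuOn 21 windows (1.99%, against 0.149%) were higher at 15 min and 65 (6.17%, against 0.328%) at 30 min, and 22 (2.09%, against 0.972%) were lower at 40 min. At 40 over 30 min, 217 windows at 15 ends were lower in Mcm6-SuOn (20.6%, against 2.49%) and 58 windows at 12 ends in the control (5.51%, against 1.2%). The subtelomeric share was above that of the genome in each of these comparisons. In the opposite direction of each, it was below that of the inner windows of the same chromosomes. In the control, windows lower than at 0 min were 1.61% against 2.47% at 30 min and 0% against 2.16% at 40 min. Control windows higher at 40 than at 30 min were 0.38% against 0.695%.

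The authors' deposited smoothed ratio, which is scaled to a factor for each chromosome, put most subtelomeric windows above 1. Of the 1053 used windows, 93.4% at 15 min, 93.2% at 30 min and 53.2% at 40 min were above 1 in Mcm6-SuOn, against 81.3%, 78.9% and 82.8% in the control. Inner windows were above 1 in 38.5% to 49.1%. The range over subtelomeric windows was 0.948 to 1.35 in Mcm6-SuOn and 0.751 to 2.40 in the control at 30 min.

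The low control level at 0 min was not a step at 30 kb. At 25 to 30 kb, just inside the limit, the level was 1.01, 1.08, 1.09 and 0.993 in Mcm6-SuOn and 0.858, 1.06, 1.09 and 1.04 in the control at 0, 15, 30 and 40 min. At 30 to 35 kb, just outside, it was 1.01, 1.06, 1.08 and 0.998 in Mcm6-SuOn and 0.868, 1.06, 1.07 and 1.04 in the control. At 0 min the control level was lowest at 25 to 30 kb and reached 0.923 at 50 to 60 kb and 0.959 at 60 to 75 kb, where Mcm6-SuOn had 1.01 at both. The difference between the genotypes at 0 min was 0.03 on the log2 scale in the outermost 5 kb, 0.23 at 25 to 30 kb and 0.08 at 60 to 75 kb. Used windows came from 11, 25 and 26 ends at these distances. The values therefore do not follow the same ends inwards, and show no trend within an end. In the outermost 5 kb, 222 of 286 windows were not used. Windows with a low count in the control at 0 min were left out, so the choice of windows depended on a library that is compared. The value of 0.03 describes the used windows only. It does not show that the genotypes were alike in the outermost 5 kb.

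**Figure D5:**
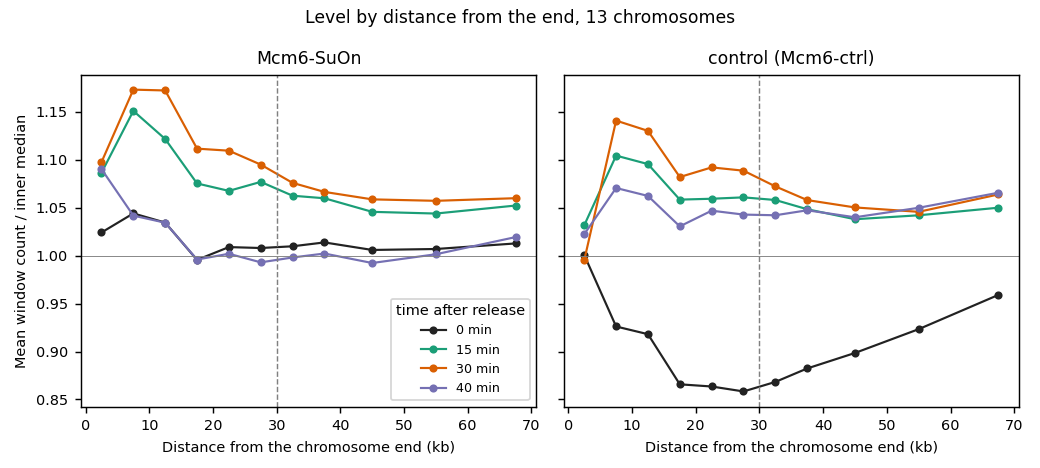
Mean level of used windows (vertical axis, window count over the inner median) by distance from the chromosome end (horizontal axis, kb), with Mcm6-SuOn at left, the control at right and 1 line for each time; the dashed line marks 30 kb. The control 0 min line is lowest at 25 to 30 kb, at 0.858, where the other 7 libraries lie between 0.993 and 1.09.

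Compared with its own neighbour at 30 to 60 kb, an end was lower at 17, 10, 4 and 16 of 26 ends in Mcm6-SuOn at 0, 15, 30 and 40 min, and at 18, 14, 8 and 14 ends in the control. The median level of the neighbours was 1.02 in Mcm6-SuOn and 0.894 in the control at 0 min. At the 14 ends with at least 10 used windows in each 15 kb part, the median ratio of the outer over the inner 15 kb was 0.980, 1.04, 1.05 and 0.991 in Mcm6-SuOn and 0.993, 1.01, 1.00 and 0.982 in the control. The outer part was higher at 10 of 14 ends in Mcm6-SuOn at both 15 and 30 min, against 8 and 7 ends in the control. The comparisons with the neighbours and of the outer and inner parts were added after the data were seen.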

How the data were processed

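Sequencing of genomic DNA gave 8 libraries, 1 for each genotype and time. Extraction used CsCl ultracentrifugation and library preparation a KAPA kit, per the labels' protocols. Per the submitters' processing notes, the build is sacCer2. How reads were aligned, filtered, counted and smoothed is not given in the sources used here. For 0 min the authors deposited raw read counts in windows of 1000 bp every 500 bp. For later times they deposited, per the file headers, a ratio in each window with the same genotype's 0 min count below the line, and a smoothed form of it. The smoothed ratio was used for 1 comparison only. The deposited ratio times the 0 min count gave whole counts in 100% of windows within the rounding of the ratio's last digit, a weak check where counts are high.

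Windows listed at 0 in any of the 6 later tables were not used. Reads were counted as window sums divided by the overlap. The labels' genotype and time define the groups, of 1 library each, so differences are described by medians over ends, by counts of windows past a fixed fold (25% higher or 20% lower) beside the share over all windows, and by exact binomial intervals at 95%. As reads carry no molecular identifiers, intervals cover counting error only. The sign-flip permutation test over times was the only test between genotypes. Ends named with their values are the 5 with the highest and the 5 with the lowest mean log2 ratio and the 2 with the highest and the 2 with the lowest mean level. XI left, other ends at the limit of a range and single-time runs are named beyond this rule, with their values known. The rule for runs asked for the same side at all 4 times. The windows, gene families and measures were chosen with earlier results of these data known. The functions were tested on simulated counts. Python 3.11.15, NumPy 2.4.6, pandas 2.3.3, SciPy 1.17.1 and matplotlib 3.10.9 were used. Alternatives left out the outer 10 kb, narrowed the ends to 20 kb, took the median over windows, moved the inner windows to over 75 kb from the ends, pooled the 0 min counts, used the deposited factor for each chromosome, raised the fold to 1.5 and kept ends with at least 30 used windows. No sequences are printed, since no sequence of this build was used here.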

Additional observations from a re-analysis of the deposited data

Results flagged for a closer look

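The median change at 40 over 0 min was below 0 in Mcm6-SuOn and above 0 in the control, but the sign in Mcm6-SuOn was not resolved. The median over 26 ends was -0.0177 on the log2 scale in Mcm6-SuOn and 0.323 in the control, and this difference was not tested, since each genotype has 1 library at each time. The Mcm6-SuOn median is smaller than the counting half-width of a single typical end, 0.0206, which is not the error of a median over ends. With the deposited factor for each chromosome the median was -0.00274. Ends went both ways in Mcm6-SuOn: the counting interval lay below 1 at 12 ends and above 1 at 10. The level at 40 min was above that at 0 min at 11 ends in Mcm6-SuOn and at 24 ends in the control. Over the pooled 0 min counts both medians were positive, at 0.0826 in Mcm6-SuOn and 0.158 in the control.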

How the results depend on the processing

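Values computed under alternatives numbered 104. Of these, 17 moved beyond the counting half-width of a typical end or 1.5 times the count, 1 turned and 86 did neither. The 86 include the mean over the 4 times, for which only direction and threshold were compared: it was 0.0785, and 0.00527 without the 0 min pair, and no setting could pass the threshold. Leaving out the outer 10 kb, which left 25 ends, changed the genotype difference at 0 min to 0.273. Over the pooled 0 min counts the changes at 15, 30 and 40 min were 0.262, 0.305 and 0.0826 in Mcm6-SuOn, the last of which turned, and 0.204, 0.253 and 0.158 in the control. With ends 20 kb wide, the change at 30 over 0 min was 0.2 in Mcm6-SuOn and 0.492 in the control, and that at 40 over 30 min was -0.265 in Mcm6-SuOn and -0.108 in the control. The median over windows gave -0.194 for 40 over 30 min in Mcm6-SuOn. Inner windows over 75 kb from the ends gave 0.446 for 30 over 0 min in the control and 0 windows higher in Mcm6-SuOn at 40 min. Past 1.5-fold, 45 subtelomeric windows were higher in Mcm6-SuOn at 0 min and 0 at 15, 30 and 40 min. Except for the stricter fold and the pooled counts, which do this by construction, the cause was not tested. All values for 40 over 30 min and the setting with at least 30 used windows were chosen after seeing the data. No paired analysis was possible by replicate number because each genotype has 1 library at each time and the labels give no replicate numbers; the sign-flip test pairs the genotypes by time instead. Depth limits single ends least and single windows most; windows with at most about 600 counts have no later value.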

Other observations

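Some used windows were low in every library, which the levels of whole ends do not show. With a level below 0.7 in all 8 libraries, 5 such windows lay at X right, 2 each at X left, XI right, XIV left and IV left, and 1 each at II right and XV left. At XI right, where all 61 windows were used, the 2 windows at chromosome XI 658501 to 660000 had median levels of 0.549, 0.603, 0.611 and 0.582 in Mcm6-SuOn and 0.531, 0.577, 0.559 and 0.581 in the control at 0, 15, 30 and 40 min. At chromosome X 742501 to 743500 the level was 0.4997, 0.562, 0.551 and 0.554 in Mcm6-SuOn and 0.517, 0.499, 0.519 and 0.555 in the control.

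The level of an end was only weakly related to how many of its windows were used, with Spearman rho between 0.111 and 0.295 over the 26 ends in the 8 libraries. Over the 22 ends with at least 30 used windows, the median level at 0 min was 0.984 in Mcm6-SuOn and 0.777 in the control, the same as over all ends to 3 digits.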
